A study of Mus musculus with 6 samples.

Results

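The genes described here are the 2 insulin-like growth factor ligands Igf1 and Igf2, their receptors Igf1r and Igf2r, and the binding proteins Igfbp2 to Igfbp7. They were taken by gene symbol, and all 10 had exactly 1 row among the 35688 gene rows of the expression table. They were measured by RNA sequencing in m1102, a single line of mouse ovarian surface epithelial (mOSE) cells, the layer that covers the ovary. One group of 3 libraries came from cells given 10 ng/mL TGFB1 for 4 days before RNA was taken, and the other group of 3 came from untreated cells, named control where replicates are numbered. Both groups grew in the same medium, alpha-Minimum Essential Medium with 4% FBS, 0.01 mg/mL ITSS and 2 ug/mL EGF, so serum and added EGF are shared by treated and untreated cells. The comparison asks how the transcripts of a growth factor system differ after exposure to TGFB1, a cytokine known for inducing matrix production.

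IGF1 and IGF2 are secreted peptides related to insulin. Both bind the tyrosine kinase receptor IGF1R, which signals through IRS adaptor proteins, PI3K and AKT and is known for promoting growth and survival. IGF2R has no kinase; it binds IGF2 and carries it, together with mannose 6-phosphate-tagged enzymes, to the lysosome. The binding proteins are secreted carriers that hold the ligands outside the cell, and proteases that cleave them release the ligand. In the mouse ovary Igf1 is best known as a product of granulosa cells of growing follicles.

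Short stretches of coding sequence are shown for the 2 ligands and for the binding proteins in which a common stretch was found. The matching stretch of the 2 ligand genes, taken from GENCODE M21 transcripts and shown 5′ to 3′ because one ligand was among the largest rises and the other was barely detected, covers 42 bases. Capitals mark the 31 bases (73.8%) that the 2 genes share at the same place. The stretch was located by a pattern of amino acids common to both, so much of this likeness follows from the search. None of the 31-base words of the 2 genes are shared, so reads of that length tell them apart.
Igf1: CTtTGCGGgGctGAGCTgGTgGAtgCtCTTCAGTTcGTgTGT
Igf2: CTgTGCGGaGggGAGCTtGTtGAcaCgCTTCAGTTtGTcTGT

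Capitals in the next set mark the codons of the glycine- and cysteine-rich stretch that characterises the amino-terminal domain of IGF binding proteins. It is shown for the 4 members in which a search of the longest coding sequence found it. It was not found by this search in Igfbp6 or Igfbp7. The set is shown because transcripts with this shared stretch did not all move the same way.
Igfbp2: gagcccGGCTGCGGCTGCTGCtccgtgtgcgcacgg
Igfbp3: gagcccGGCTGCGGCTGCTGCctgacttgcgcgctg
Igfbp4: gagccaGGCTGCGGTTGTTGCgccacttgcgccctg
Igfbp5: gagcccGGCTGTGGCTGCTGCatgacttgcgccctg

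Abundances are given in TPM as deposited, a scale corrected for transcript length, so levels can be compared between genes. Read numbers are not part of the table, and sequencing depth is therefore unknown. Its columns summed to 983434 to 987121 TPM in the treated libraries and 1006783 to 1026702 TPM in the untreated ones. TGFB1 replicate 1 stood apart from the other treated libraries, at 46.6 on the first principal component against 20.2 and 18.1 for replicates 2 and 3 and -29.8 to -27.1 for the untreated libraries. Results are therefore given with and without it where it matters. Genes averaging at least 1 TPM over the 6 libraries were tested with limma on log2(TPM + 1), and a gene was called at a Benjamini-Hochberg adjusted p under 0.05 over all 12257 tested genes. Fold changes are treated over untreated on this scale, and the added 1 TPM makes changes of weakly expressed genes look smaller than they were. Among markers of the labelled cell type, Wt1 averaged 144 ± 35.1 TPM in treated and 181 ± 11.6 TPM in untreated cells, and the mesothelin gene Msln 408 ± 25.6 TPM in treated and 508 ± 62.4 TPM in untreated cells (SD, n = 3 in each group, as for every mean below). Of 7 tested genes in that marker list 3 fell, namely Upk3b, Krt7 and Krt18, beside 14.6% of all tested genes called lower. The count ran from 2 to 4 over the alternatives, with the Upk3b call lost in 4 of 14. The list summed to 778 to 1073 TPM in treated and 1510 to 1593 TPM in untreated cells. Lgr5, Aldh1a2 and Lhx9, also listed as markers of this epithelium, stayed under 1 TPM in every library. In bulk RNA, fewer cells of a type and less RNA per cell cannot be told apart.

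With TGFB1, the ligand gene Igf1 rose to a mean 13.5 times that of untreated cells, both receptor genes rose by much less, and 3 of the 4 tested binding protein genes fell. Of the 10 members 7 passed the abundance filter, and of these 3 were called higher and 3 lower, beside 15.8% of all tested genes called higher, 14.6% called lower and 30.4% called in either direction. The treated and untreated values of all 7 did not overlap, beside 49.8% of all tested genes. The median log2 fold change of the 7 was -0.71, and that of all tested genes 0.02. These counts leave out Igf2, Igfbp2 and Igfbp7, which were under the filter, and Igfbp5 passed it through its untreated libraries alone, so the counts describe the members and support nothing about the family as a whole.

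**Figure D1:**
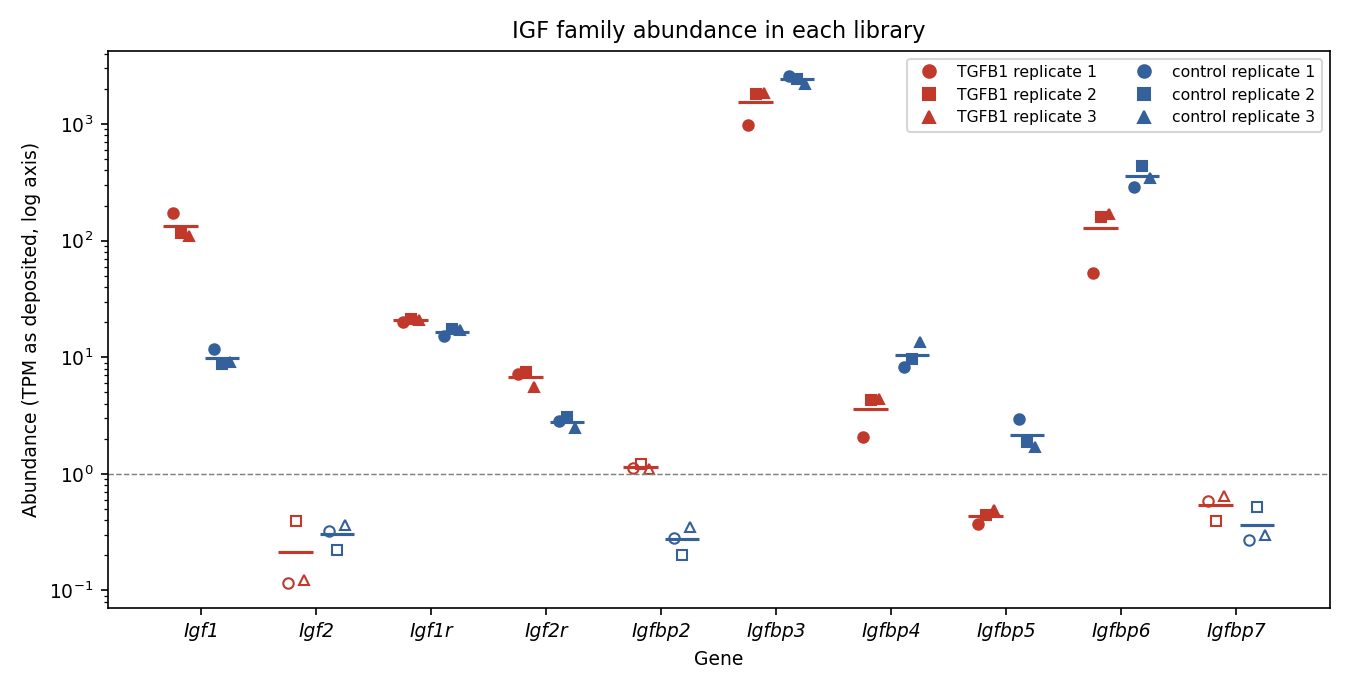
Abundance (TPM as deposited, log axis) of the 10 genes in each library, TGFB1 in red left of control (untreated) in blue; symbols mark the replicate, bars the group mean, open symbols genes under the mean filter and the dashed line 1 TPM. Igf1 sits at 111 to 172 TPM in treated and 8.67 to 11.7 TPM in untreated cells, while Igfbp3 is the most abundant member in all 6 libraries.

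Positions of all members are from GENCODE M21 on GRCm38. Igf1 (chromosome 10, bases 87858265 to 87937042, plus strand) had 172, 116 and 111 TPM in the treated libraries, against 11.7, 8.67 and 9.09 TPM in the untreated ones. The groups were far apart, and the highest value was that of TGFB1 replicate 1. Its log2 fold change was 3.61 (SE 0.187, adjusted p = 0.000135), rank 9 by rise among the 12257 tested genes. Without TGFB1 replicate 1 it was 3.41 (adjusted p = 2.7e-05), and over the 14 alternative settings tried it ran from 3.19 to 3.73 and was called in each. The antisense gene Igf1os overlaps Igf1 on the other strand and was not analysed here. The sources used here do not say whether quantification used strand, so it is unknown whether reads of the pair were told apart.

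Igf2, the ligand best known as a fetal growth factor, lies on chromosome 7 at 142650766 to 142666816 on the minus strand. It was listed at 0.117, 0.397 and 0.123 TPM in the treated libraries, against 0.320, 0.224 and 0.366 TPM in the untreated ones. The groups overlapped, and an exact two-sided permutation test gave p = 0.40, where 3 libraries against 3 cannot go below 0.10. Of its transcript 31-mers 61.9% also occur in another gene, so even this low value is uncertain. The ligand sum was therefore almost entirely Igf1, at 172, 116 and 111 TPM in treated cells, against 12.1, 8.90 and 9.46 TPM in untreated cells.

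The receptor genes rose far less than Igf1. Igf1r, the signalling receptor (chromosome 7, 67952827 to 68233668, plus strand), had 20.2, 21.4 and 20.8 TPM in treated cells, against 15.3, 17.3 and 17.1 TPM in untreated cells. The groups did not overlap and treated values varied little, with a log2 fold change of 0.31 (SE 0.0737, adjusted p = 0.0209). This call was lost without control replicate 1, control replicate 3, TGFB1 replicate 2 or TGFB1 replicate 3, with adjusted p up to 0.0731, and the fold stayed between 0.26 and 0.36 over the 14 alternatives.

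Igf2r, the receptor that clears IGF2 (chromosome 17, 12682406 to 12769664, minus strand), had 7.19, 7.41 and 5.56 TPM in treated cells, against 2.84, 3.10 and 2.46 TPM in untreated cells. The lowest treated library had 1.80 times the highest untreated one. Its log2 fold change was 1.02 (SE 0.135, adjusted p = 0.00284), called in each of the 13 alternatives in which it was tested, from 0.58 with a pseudocount of 5 TPM to 1.23 with one of 0.1 TPM. Igf1r had 3.15 ± 0.511 TPM per TPM of Igf2r in treated cells and 5.99 ± 0.859 in untreated cells. The noncoding gene Airn overlaps Igf2r on the other strand and was not analysed here.

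Igfbp3, known as the main carrier of IGFs in blood, was the most abundant member in every library and ranked 48 by mean abundance among all 35688 rows. It lies on chromosome 11 at 7206086 to 7213923 on the minus strand. It had 978, 1809 and 1833 TPM in treated cells, against 2581, 2458 and 2225 TPM in untreated cells. The groups did not overlap, but TGFB1 replicate 1 was at 53.7% of the mean of the other treated libraries, and Igfbp3 was not called (log2 fold change -0.71, SE 0.237, adjusted p = 0.0629). Without that library the fold was smaller, at -0.41, and it was called lower (adjusted p = 0.00537); in the other 13 alternatives it was not called, with adjusted p up to 0.161.

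Igfbp6, a binding protein with a preference for IGF2, was second in untreated cells (chromosome 15, 102144362 to 102149511, plus strand). It had 52.9, 159 and 170 TPM in treated cells, against 290, 440 and 347 TPM in untreated cells. TGFB1 replicate 1 was again the lowest library by a wide margin. The log2 fold change was -1.64 (SE 0.436, adjusted p = 0.0306) and -1.10 without TGFB1 replicate 1 (adjusted p = 0.00326). Dropping any single untreated library ended the call, as did testing with no filter, and adjusted p then reached 0.0985.

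Igfbp4, an inhibitor of IGF action that PAPP-A is known to cleave, had 2.07, 4.32 and 4.40 TPM in treated cells, against 8.26, 9.61 and 13.4 TPM in untreated cells (chromosome 11, 99041244 to 99054392, plus strand). Every treated library was below every untreated one, with a log2 fold change of -1.34 (SE 0.263, adjusted p = 0.0111). It was called in all 14 alternatives, from -1.56 with a pseudocount of 0.1 TPM to -0.84 with one of 5 TPM, and was at -1.07 without TGFB1 replicate 1.

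Igfbp5, a carrier that binds extracellular matrix (chromosome 1, 72857932 to 72874884, minus strand), had 0.369, 0.442 and 0.489 TPM in treated cells, against 2.93, 1.88 and 1.69 TPM in untreated cells. The treated mean was 0.200 of the untreated mean. The log2 fold change was -1.12 (SE 0.189, adjusted p = 0.00631) and was called in all 13 alternatives that tested it, but its size rests on the pseudocount: -2.05 with 0.1 TPM and -0.40 with 5 TPM. Without TGFB1 replicate 1 it was -1.09. Igfbp5 passed the filter through its untreated libraries alone, so its kept call is no added support.

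Igfbp2, whose protein carries an integrin-binding RGD sequence, was listed at 1.12, 1.22 and 1.10 TPM in treated cells, against 0.279, 0.200 and 0.350 TPM in untreated cells. Its groups did not overlap, with a treated mean 4.14 times the untreated one, but its mean over all libraries (0.711 TPM) was under the filter. The exact permutation test gave p = 0.10, the smallest this design allows. In the fit with no filter it was called higher (log2 fold change 0.75, adjusted p = 0.00460). Igfbp7, which binds IGFs weakly and overlaps Polr2b on the opposite strand, had 0.581, 0.395 and 0.647 TPM in treated cells, against 0.270, 0.520 and 0.301 TPM in untreated cells. Its groups overlapped (exact permutation p = 0.20).

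**Figure D2:**
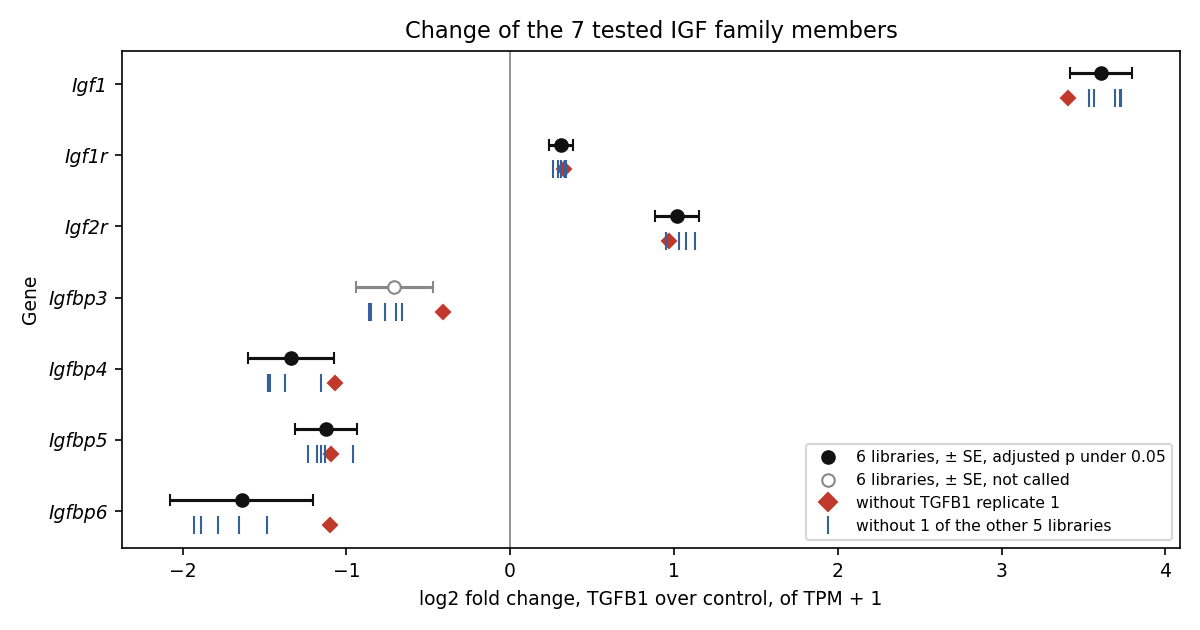
Log2 fold change of TPM + 1, TGFB1 over control (x axis), for the 7 tested genes; circles with SE bars are from all 6 libraries, filled where the adjusted p was under 0.05, and the marks below each are the fits with 1 library left out. Igf1 stays between 3.41 and 3.73, and the fit without TGFB1 replicate 1 (diamond) moves Igfbp3 to -0.41 and Igfbp6 to -1.10.

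Igfbp2 and Igfbp5 are next to each other. Igfbp2 spans 72824503 to 72852474 on the plus strand of chromosome 1, and 5457 bases separate its end from that of Igfbp5 on the minus strand. The pair had opposite orders: Igfbp2 was above Igfbp5 in all 3 treated libraries and below it in all 3 untreated ones. On chromosome 11, Igfbp1 lies 3539 bases from Igfbp3 and was listed at 0 in all 6 libraries. Of the 18 nearest protein-coding neighbours that are not members, 9 were tested, and 1 was called higher and 1 lower. Of all tested genes 15.8% were called higher and 14.6% lower, so this count is not a result about the neighbours. The intermediate filament gene Synm, 193084 bases from Igf1r, was called higher (1.94 ± 0.130 TPM in treated and 1.14 ± 0.0848 TPM in untreated cells, limma adjusted p = 0.0386), a call lost in 8 of 13 alternatives. The mitochondrial ribosomal protein gene Mrpl23, 110018 bases from Igf2, was called lower (15.8 ± 3.88 TPM in treated and 25.6 ± 3.12 TPM in untreated cells, limma adjusted p = 0.0297), a call lost in 4 of 14.

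The order of levels differed between the groups. In treated cells Igfbp3 came first, then Igf1 (133 ± 33.8 TPM) and Igfbp6 (127 ± 64.9 TPM), whose ranges overlapped, then Igf1r, Igf2r and Igfbp4, each separate from the next, then Igfbp2. Below these the ranges of Igfbp7 and Igfbp5 met, as did those of Igfbp5 and Igf2. In untreated cells the order was Igfbp3, Igfbp6, Igf1r, Igfbp4, Igf1, Igf2r, Igfbp5, Igfbp7, Igf2 and Igfbp2, and the neighbours Igfbp4 and Igf1, Igf2r and Igfbp5, Igfbp7 and Igf2, and Igf2 and Igfbp2 were not separated beyond their spread.

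Summed over the 6 members, binding protein transcripts were at 1035, 1975 and 2010 TPM in treated cells, against 2883, 2910 and 2587 TPM in untreated cells. Igfbp3 alone made up 94.5, 91.6 and 91.2% of that sum in treated libraries, against 89.5, 84.5 and 86.0% in untreated ones. Igfbp6 made up 5.11, 8.06 and 8.48% in treated libraries, against 10.1, 15.1 and 13.4% in untreated ones, and together these 2 genes held 99.4 to 99.7% of the sum in every library. For each TPM of Igf1 there were 6.03, 17.0 and 18.2 TPM of binding protein transcript in treated cells, against 246, 335 and 285 TPM in untreated cells. TGFB1 replicate 1 had both the highest Igf1 and the lowest binding protein sum. These ratios are of transcripts, are untested because the members were chosen with results known, and say nothing of protein.

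**Figure D3:**
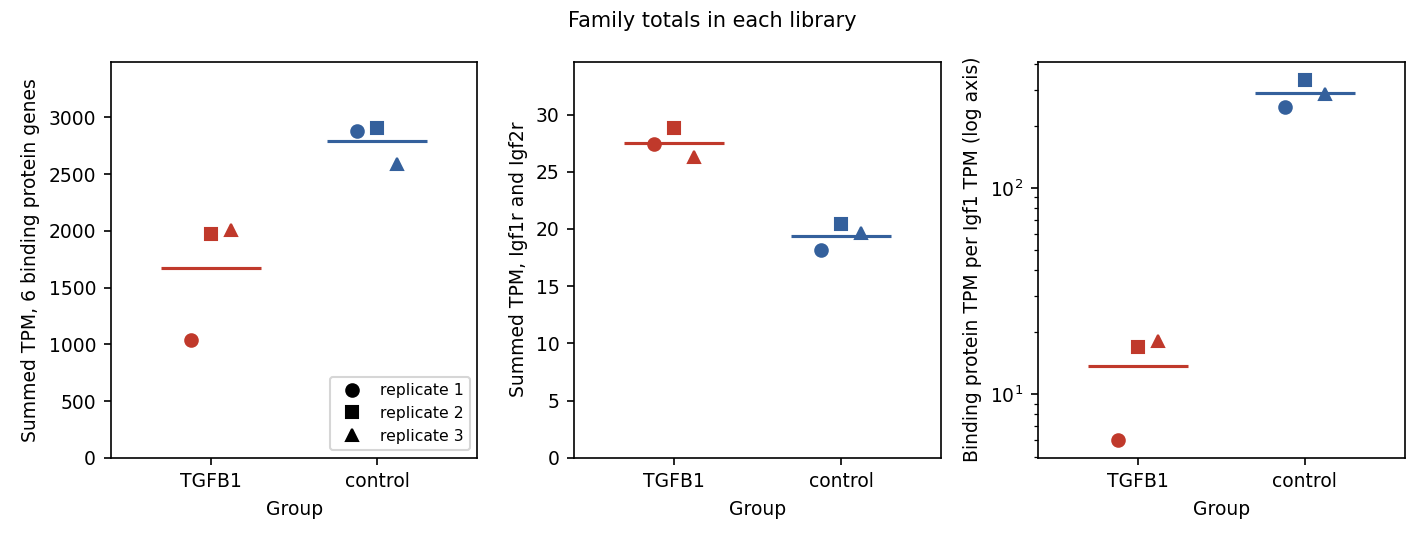
Summed TPM of the 6 binding protein genes, summed TPM of Igf1r and Igf2r, and binding protein TPM per TPM of Igf1 (log axis), TGFB1 left of control; symbols are libraries and bars group means. Treated and untreated libraries are separate in all 3 panels, with 6.03 to 18.2 against 246 to 335 TPM of binding protein per TPM of Igf1.

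The transcripts whose 6 values lay closest to those of the 3 members with the largest fitted changes (Igf1, Igfbp6 and Igfbp4) were found by the root mean square difference of log2(TPM + 1) after subtracting each gene's untreated mean. This choice of members rests on the pseudocount of 1 TPM: with 0.1 TPM, Igfbp5 at -2.05 changed more than Igfbp6 (-1.65) and Igfbp4 (-1.56). Nearest to Igf1 were the mechanosensitive channel gene Piezo2 (difference 0.21 log2 units), the WNT ligand gene Wnt7b (0.27) and Pmp2 (0.29). In untreated cells Piezo2 was at 0.436 to 0.525 TPM and Pmp2 at 0 to 0.0440 TPM, so their nearness rests on the added 1 TPM. Over the alternatives the log2 fold change of Piezo2 ran from 2.17 to 5.07 and that of Pmp2 from 1.63 to 6.54. That of Igf1 ran from 3.19 to 3.73. Wnt7b had 140, 67.7 and 64.2 TPM in treated cells, against 4.76, 5.32 and 5.32 TPM in untreated cells. Like Igf1 it was highest in TGFB1 replicate 1, but it was picked on these same 6 values. Pmp2 was highest in TGFB1 replicate 2 (12.8 TPM). Nearest to Igfbp6 were the selenium carrier gene Selenop (0.06), Gm45551 (0.10) and the glucuronosyltransferase gene Ugt1a6a (0.13). Selenop had 29.1, 84.7 and 91.6 TPM in treated cells, against 158, 226 and 174 TPM in untreated cells. It was picked on these same 6 values, so its low TGFB1 replicate 1 follows from the selection. Nearest to Igfbp4 were Afap1l2 (0.09), the tight junction gene Ocln (0.14) and Popdc3 (0.15). Popdc3 was under 1 TPM in every treated library, and its log2 fold change ran from -2.43 to -0.46 over the alternatives. Of the 31-mers of Pmp2, Gm45551 and Ugt1a6a, 88.1, 39.98 and 53.0% also occur in other genes, so their values are uncertain.

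Of 16 listed proteases that free IGFs from their carriers and inhibitors of these 8 were tested, and 1 rose and 2 fell. These 3 of 8 are near the 30.4% of all tested genes called, so the count is not a result about the list. Htra1, a secreted serine protease that can cleave IGFBP5, rose to 1299 TPM in treated cells, against 586 TPM in untreated cells (log2 fold change 1.14, adjusted p = 0.000733). Plat, the tissue plasminogen activator, averaged 17.0 TPM in treated and 55.9 TPM in untreated cells (-1.72, adjusted p = 0.00336). C1ra, a complement protease, also fell (-1.37), but 59.3% of its 31-mers occur in other genes. Pappa, the protease known for cleaving IGFBP4, was under 1 TPM in every library, and its relative Pappa2 averaged 2.25 TPM in treated and 1.67 TPM in untreated cells and was not called. The list median was -0.04, and that of all tested genes 0.02.

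Among 7 listed proteins that carry an IGFBP-type domain outside the family, all 3 that were tested rose: Htra1, Crim1 (174 TPM in treated and 137 TPM in untreated cells, log2 fold change 0.34, adjusted p = 0.0275) and Kazald1 (3.52 TPM in treated and 2.53 TPM in untreated cells, 0.36, adjusted p = 0.0464). The calls of Crim1 and Kazald1 were lost in 5 of 14 and 10 of 13 alternatives, and 15.8% of all tested genes were called higher. Of 14 listed surface and matrix partners of binding proteins 11 were tested, of which 9 rose and 2 fell. Of all tested genes 15.8% were called higher and 14.6% lower. The list median was 0.93, and that of all tested genes 0.02. Among those that rose was the matrix protein gene Thbs1, with 1078 TPM in treated and 315 TPM in untreated cells (log2 fold change 1.74). The integrin genes Itgb3 (1.26, a call lost in 4 of 14 alternatives) and Itga5 (1.12) also rose.

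Downstream of the receptor, of 28 tested genes of the PI3K, AKT and mTOR core 2 rose and 2 fell, 14.3% in all, beside 30.4% of all tested genes. Those 4 were small changes: Akt1 (log2 fold change 0.35), the PI3K catalytic subunit gene Pik3cb (0.40), the AKT phosphatase gene Phlpp2 (-0.42) and the pro-apoptotic gene Bad (-0.25). Each call was lost in 4 to 8 of 14 alternatives. Insr, the insulin receptor gene, averaged 11.1 TPM in treated and 11.6 TPM in untreated cells and was not called (-0.07, SE 0.217, adjusted p = 0.839).

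Of 15 tested receptor adaptors and feedback genes 2 rose and 3 fell, again near the 30.4% of all tested genes. Sh2b2, an adaptor of insulin and IGF1 receptors, rose to 9.14 TPM in treated cells, against 2.92 TPM in untreated cells (1.36, adjusted p = 0.00267). Socs3, a feedback inhibitor of cytokine and insulin signalling, fell to 14.1 TPM in treated cells, against 39.9 TPM in untreated cells (-1.48, adjusted p = 0.00426). The adaptor gene Shc1 (-0.32) and the phosphatase gene Ptpn1 (-0.23) were called lower, calls lost in 6 and 9 of 14 alternatives. The adaptor gene Irs2 averaged 15.6 TPM in treated and 13.3 TPM in untreated cells and was not called, and Irs1 and Irs4 were under the filter.

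Of 13 tested genes known to be regulated by FOXO factors, which AKT inhibits, 1 rose and 2 fell, a share not above that of all tested genes. The pseudokinase gene Trib1 fell (log2 fold change -0.88, adjusted p = 0.000731), as did Txnip (-0.74, adjusted p = 0.00746), and the stress gene Gadd45a rose (0.78), a call lost in 3 of 14 alternatives. Without TGFB1 replicate 1, 4 fell. In the growth hormone axis, which drives Igf1 in liver, 6 of 8 genes were tested, and 1 rose and 3 fell. Of all tested genes 15.8% were called higher and 14.6% lower. The list median was -0.18, and that of all tested genes 0.02. The receptor gene Ghr rose (0.59, lost in 4 of 14 alternatives), and the transcription factor genes Stat5a (-0.55) and Stat5b (-0.49) and the STAT5 target Cish (-0.66) fell. The Stat5b and Cish calls were lost in 4 and 3 of 14 alternatives. Of the list on the IGF2 locus, imprinting and IGF2 mRNA binding, 8 of 11 genes had a row and 5 were tested. H19, Igf2os and Airn had no row, so the counts do not cover the IGF2 locus itself. Among the 5 tested genes 1 rose and 2 fell, beside the same shares of all tested genes, and the list median was -0.04. Plagl1, an imprinted zinc finger gene, rose (1.13, adjusted p = 0.000298), and Igf2bp2, which binds IGF2 mRNA (-0.76, adjusted p = 0.00352), and Peg3 (-0.59, lost in 4 of 14 alternatives) fell.

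**Figure D4:**
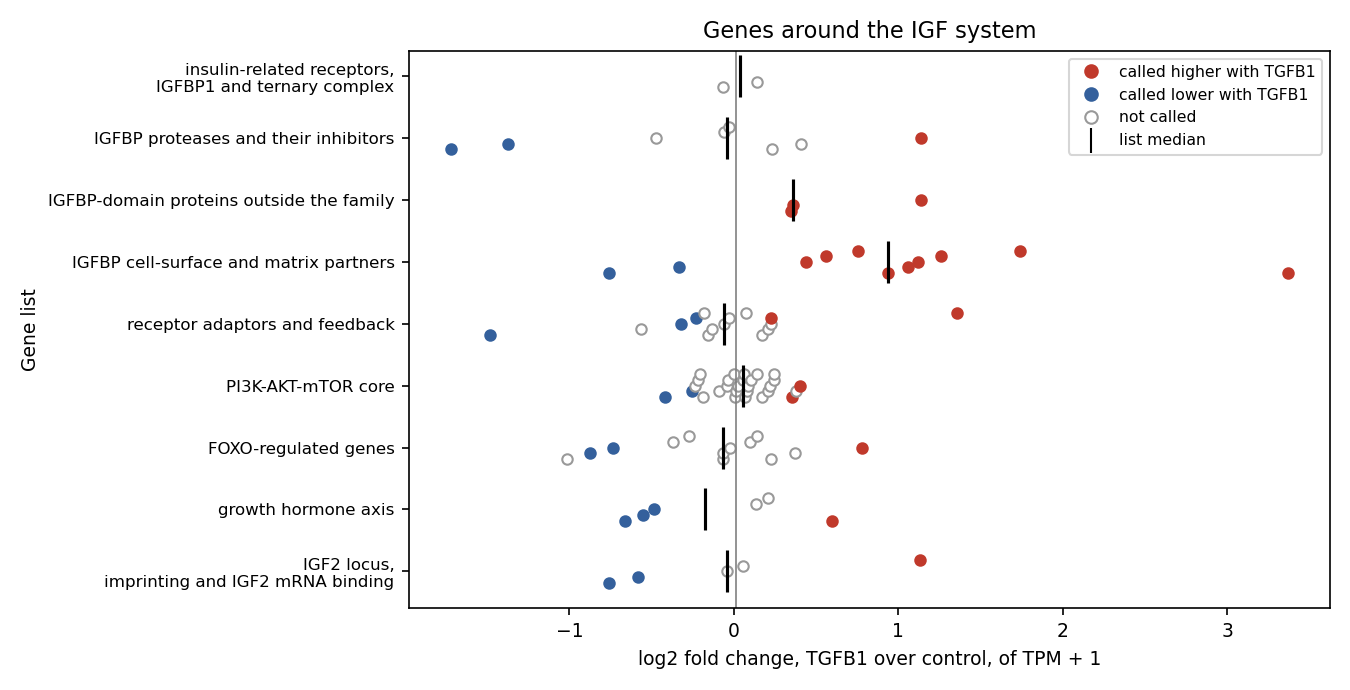
Log2 fold change of TPM + 1, TGFB1 over control (x axis), of each tested gene in 9 lists of genes around the IGF system (y axis); filled points were called, open points were not, black bars are list medians and the grey line is the median of all tested genes. The matrix and surface partners lie mostly to the right, from 8 to 9 called higher over the alternatives, while 24 of 28 PI3K, AKT and mTOR genes are open. Of all tested genes 15.8% were called higher and 30.4% in either direction.

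The next 3 promoters are shown because their genes kept their calls in every fit that tested them. Igfbp5 passed the abundance filter through its untreated libraries alone, and most fits kept that gene set, so its kept call is no added support. They are the bases before a RefSeq transcript start (GRCm38.p6), cut where a GENCODE exon of the gene begins, with matches in capitals to CAGAC (bound by SMAD proteins), TGANTCA (AP-1) and TATAAA, read on both strands; the SMAD palindrome GTCTAGAC, which holds no CAGAC, was searched too. The Igf1 window lies inside an annotated exon and is not printed.
Igf2r (rose), chr17:12769707-12769956, minus strand: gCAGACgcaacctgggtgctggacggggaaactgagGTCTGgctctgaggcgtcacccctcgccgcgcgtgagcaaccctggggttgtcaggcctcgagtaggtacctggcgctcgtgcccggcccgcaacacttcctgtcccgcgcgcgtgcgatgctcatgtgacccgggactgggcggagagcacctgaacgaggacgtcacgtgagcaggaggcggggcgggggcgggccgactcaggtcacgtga
Igfbp4 (fell), chr11:99040994-99041243, plus strand: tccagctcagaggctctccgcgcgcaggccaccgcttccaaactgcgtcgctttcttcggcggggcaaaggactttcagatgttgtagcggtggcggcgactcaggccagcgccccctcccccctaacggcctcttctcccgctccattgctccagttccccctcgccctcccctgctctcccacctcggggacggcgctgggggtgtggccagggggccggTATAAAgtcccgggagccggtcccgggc
Igfbp5 (fell), chr1:72874885-72875115, minus strand: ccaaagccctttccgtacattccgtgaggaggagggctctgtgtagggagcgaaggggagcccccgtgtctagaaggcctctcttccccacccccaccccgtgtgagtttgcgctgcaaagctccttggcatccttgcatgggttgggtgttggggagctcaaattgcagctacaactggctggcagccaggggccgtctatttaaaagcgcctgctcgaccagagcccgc

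The Igf2r window holds CAGAC 2 times, the Igfbp4 window TATAAA 1 time, and the Igfbp5 window none of the 4 motifs. Among all 32851 RefSeq promoter windows of 250 bases, 42.2% hold CAGAC, 12.4% TATAAA, 6.75% TGANTCA and 0.167% GTCTAGAC. These matches describe the letters in the windows and nothing about binding.

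Markers of other cell types that could carry IGF transcripts were checked. Of 7 macrophage and leukocyte markers 5 were under 1 TPM in every library. The list summed to 8.33 to 11.3 TPM in treated and 19.7 to 27.9 TPM in untreated cells, most of it Cd68. Cd68, the only tested gene of this list, averaged 8.79 TPM in treated and 22.7 TPM in untreated cells. It was called lower (log2 fold change -1.27, limma adjusted p = 0.0026), also in all 14 alternatives. The granulosa list of 8 summed to 39.4 to 41.1 TPM in treated and 41.6 to 43.4 TPM in untreated cells, with the follicle-stimulating hormone receptor gene Fshr at 0 in all libraries, and of its 4 tested genes 1 fell and 1 rose. The inhibin subunit gene Inha averaged 9.83 TPM in treated and 16.9 TPM in untreated cells (log2 fold change -0.75, limma adjusted p = 0.0152, lost in 2 of 14 alternatives). The transcription factor gene Foxl2 averaged 22.7 TPM in treated and 18.5 TPM in untreated cells (0.28, limma adjusted p = 0.0265, lost in 4 of 14). The theca and luteal list of 7 summed to 145 to 251 TPM in treated and 338 to 382 TPM in untreated cells, with the luteinizing hormone receptor gene Lhcgr at 0, and of its 3 tested genes 1 fell and 1 rose. The steroidogenic gene Star, most of the sum, averaged 143 TPM in treated and 299.6 TPM in untreated cells (-1.15, limma adjusted p = 0.0279), and the nuclear receptor gene Nr5a1 averaged 66.8 TPM in treated and 56.0 TPM in untreated cells (0.25, limma adjusted p = 0.0180). Each of these calls was lost in 4 of 14 alternatives. The fibroblast list of 8 summed to 1102 to 1175 TPM in treated and 1941 to 2080 TPM in untreated cells, as Dcn and Thy1 fell. The smooth muscle and pericyte list of 7 summed to 1762 to 2313 TPM in treated and 1385 to 1770 TPM in untreated cells, mostly Acta2, which was not called. Of its 4 tested genes 2 rose, and the list median was 1.15, beside 0.02 for all tested genes. The adhesion molecule gene Mcam averaged 127 TPM in treated and 22.3 TPM in untreated cells (2.40, limma adjusted p = 0.00114), called in all 14 alternatives. The calponin gene Cnn1 averaged 5.90 TPM in treated and 1.26 TPM in untreated cells (1.56, limma adjusted p = 0.0182), a call lost in 3 of 13. The endothelial list of 7 summed to 1.92 to 2.42 TPM in treated and 1.26 to 1.34 TPM in untreated cells. Of 9 tested TGFB1 target genes 5 rose and 1 fell. All counts of called genes in this paragraph stand beside 15.8% of all tested genes called higher and 14.6% called lower. The counts of the cell type lists come from few tested genes and are not results about those lists. The part of these cell types in the changes of the IGF genes was not tested.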

How the data were processed

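Poly(A)-selected libraries from 250 ng of total RNA were made with a strand-marking kit, per the labels' protocols. kallisto 0.44.0, sleuth 0.30.0 and the build GRCm38 appear in the submitters' processing notes without roles. The sources used here do not give the annotation, strand use or the summing of transcripts. The authors deposited a TPM-scale signal, 1 column per library, with unequal column totals, for which no step is described. Library depth is unknown, so no counting interval is given.

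Columns were matched to samples by group and replicate number; 0 columns were unused. Values were fitted as log2(TPM + 1) with limma 3.58.1 (R 4.3.3, eBayes with trend, two-sided), for 12257 rows averaging at least 1 TPM. Alternatives other than the filters kept this gene set. A simulation over 12257 genes, 200 of them changed, checked the fit: 58.2% of 1.5-fold, 74.6% of 2-fold and 95.5% of 4-fold changes were called, and 6.17% of calls were false. It changed far fewer genes than the 3725 called in the data. Its noise was drawn independently for each gene, with no library standing apart as TGFB1 replicate 1 did. These rates therefore do not describe the calls made here. The labels do not say that samples were separately treated cultures, so the p-values rest on a spread that could be technical. Members, lists and tests were chosen with earlier results of these data known. Named genes are the 10 members, up to 4 called genes of each list with the largest change (values of some uncalled genes are added, chosen after their values were seen), tested chromosome neighbours (with values where called), and the 3 genes nearest to each of the 3 members with the largest fitted change. One gene that this rule names is not reported here. Coordinates, neighbours and shared 31-mers are from GENCODE M21 (GRCm38), which shares 35101 of the 35688 gene IDs; promoters are from RefSeq (GRCm38.p6), where all 10 members matched. Python 3.11.15 was used.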

Additional observations from a re-analysis of the deposited data

How the results depend on the processing

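Across the 14 alternatives, Igf1 and Igfbp4, and across the 13 that tested them Igf2r and Igfbp5, kept direction and call. For Igfbp5 this is no added support, because it passed the filter through its untreated libraries alone. Members called higher ranged from 2 to 4 and lower from 2 to 4. Igf1r and Igfbp6 each lost the call in 4, and Igfbp3 gained one without TGFB1 replicate 1; the cause was not tested. Over all tested genes, leaving out 1 library gave 1113 to 2024 called higher and 917 to 1926 lower, against 1937 and 1788; the lowest counts came without control replicate 3 (1113 and 917), and without control replicate 1 they were 1181 and 1130, and 1125 were lower without control replicate 2. Rescaling to totals that omit mitochondrial genes and the top 20 by abundance gave 2352 higher and 1443 lower, and all tested genes then had a median of 0.06. With no filter, 22740 rows were tested and 1518 and 1313 called.

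Replicate numbers are shared by the groups, and same-numbered libraries had correlations of deviations of 0.198, 0.153 and -0.0384. TGFB1 replicate 1 correlated best with control replicate 1 (0.198) and TGFB1 replicate 2 with control replicate 2 (0.153). TGFB1 replicate 3 correlated best with control replicate 2 (0.184). Whether same-numbered samples were handled as pairs was not tested. With a replicate block 1906 genes were higher and 1924 lower, and 3 members were higher and 3 lower, with Igf1 at adjusted p = 0.00103 (limma). Among low genes the fold depends on the pseudocount: Igfbp5 ran from -2.05 to -0.40. Depth is unknown, so changes of Igf2 and Igfbp7 may not be detectable here.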
